A study of Mus musculus with 12 samples.

Results

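The mouse genes for Wnt ligands, their receptors and their modulators were followed in D2A1 and D2.OR, a pair of mammary tumor cell lines. The members were the protein-coding genes whose symbols name a Wnt, a Frizzled, an Sfrp, a Dkk, an R-spondin, Lgr4 to Lgr6, Lrp5 or Lrp6, an Axin, Tcf7, Tcf7l1, Tcf7l2, Lef1, Porcn, Ror1, Ror2 or Ryk. This gave 56 of 21950 protein-coding genes and of 52550 genes in all.

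D2A1 and D2.OR are related mouse lines, each grown out of a separate tumor of the D2 hyperplastic alveolar nodule type in a different mouse, and D2A1 serves as the proliferative and D2.OR as the dormant model. Each was grown in 2D, on plastic, or in 3D, on a layer of growth-factor-reduced Matrigel, and the labels name no further agent. The study's Matrigel assay used a medium with horse serum, hydrocortisone, cholera toxin, insulin and dissolved Matrigel, and for RNA the cells were freed from Matrigel in cold recovery solution. The effect of that step and of 3D growth cannot be told apart. The 4 groups were D2A1 2D, D2A1 3D, D2.OR 2D and D2.OR 3D, with 3 replicates each and 12 libraries in all. Replicate numbers 1, 2 and 3 also mark the batch, and each batch had a sequencing lane of its own. RNA came from pooled wells. Each line stands as a single derivation, so what differs between dormant and proliferative cells and what differs between these individual lines cannot be told apart. The methods do not settle whether the medium of the 2D cultures used for RNA equalled that of the 3D cultures.

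Wnt proteins are lipid-modified secreted ligands. They bind a Frizzled receptor together with Lrp5 or Lrp6, which stops the Axin scaffold from sending β-catenin to destruction, so that β-catenin enters the nucleus and works with TCF/LEF factors at target genes such as Axin2. R-spondins, bound by Lgr receptors, keep Frizzled receptors at the cell surface, while Sfrp and Dkk proteins block ligands or co-receptors. Ror1, Ror2 and Ryk receive Wnt signals through routes that can bypass β-catenin. In the mammary gland, Wnt4 and the R-spondins are known for their part in branching and in the upkeep of progenitor cells.

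Levels are given as TPM, a transcript abundance that corrects for how long a gene is and how deep its library is, so that genes can be compared with one another. Tests used edgeR's quasi-likelihood method on the counts, and a gene is called where its adjusted p is under 0.05. Library totals ranged from 47589613 to 73325057 counts. Of the 56 members, 33 had a mean of at least 1 TPM in a group and 20 of at least 10 TPM. A further 7 stayed under 1 TPM and 16 had 3 counts or fewer in every library, which is treated here as the floor. The filter on low counts passed 36 members. A gene that is silent in D2A1 can pass it only through D2.OR, or the other way round, and Wnt5a, Wnt6, Wnt10a, Wnt10b, Wnt11, Fzd8, Rspo3, Dkk3 and Sfrp2 passed it only through D2.OR. Counts below are therefore given against all members, or all members of a family.

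The markers of the labelled cell type differed between the lines. In D2A1, Epcam, Cdh1, Krt5, Krt14 and Krt19, of 7 epithelial markers, stayed at or under 0.28 TPM in each library, Krt8 reached 2.31 TPM, and Krt18 alone was abundant, at 92.71 to 294.48 TPM. D2.OR held Krt8 at 227.4 to 1021.96 TPM and Cdh1 at 8.93 to 183.31 TPM, with Krt5 and Krt19 at or under 0.14 TPM. The 7 epithelial markers summed to 94.02 to 296.91 TPM in D2A1 and 422.37 to 1716.27 TPM in D2.OR, and the 5 fibroblast markers to 16.59 to 41.39 and 89.45 to 213.19 TPM. The 6 mesenchymal markers summed to 1749.5 to 3608.75 TPM in D2A1 and 3659.26 to 6490.25 TPM in D2.OR. Vim was the most abundant of these in D2.OR. Zeb1 went the other way, at 11.76 to 24.06 TPM in D2A1 and 1.23 to 10.85 TPM in D2.OR. Fn1 averaged 1805 TPM in D2A1 2D and 1291 TPM in D2.OR 2D, with overlapping libraries, and 527.7 and 761.5 TPM in 3D. The fibroblast marker Dcn averaged 0.667 TPM in D2A1 2D and 3.29 TPM in D2.OR 2D, but 3.16 and 1.2 TPM in 3D. These sums differed between the lines, and their part in the differences of Wnt genes below was not tested. Endothelial markers summed to at most 0.63 TPM, with Cdh5 at or under 0.02 TPM, and the defining immune marker Ptprc stayed at or under 0.05 TPM. The 6 immune markers summed to 2.27 to 32.15 TPM, nearly all of it Cd68, which was at 6.84 to 32.13 TPM in D2A1 2D. In bulk RNA, fewer cells of a type and less RNA per cell cannot be told apart.

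The number of calls in the comparisons of 3D with 2D depended on replicate 1. Without its 4 libraries, the share of all genes called rose in D2A1 to 17.4% higher and 18.9% lower in 3D, in D2.OR to 3.69% and 4.7%, and in the interaction of line and culture to 9.17% positive and 8.64% negative. With all 12 libraries these shares were 1.37% and 2.12%, 0.838% and 0.785%, and 0.0178% and 0.00594%. Results on culture are therefore given with and without replicate 1. That replicate was singled out by this rise in calls, and the fits without it rest on replicates 2 and 3 alone. Their adjusted p-values are thus no independent support. Leaving out replicate 2 or 3 instead left no member called in D2A1.

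The first comparison asks how the lines differ in each culture. More Wnt genes were called higher than lower in D2.OR. In 2D, 25 of the 56 members were called, 23 higher and 2 lower in D2.OR, where 25.4% of all genes tested were called higher and 24.4% lower. In 3D, 30 were called, 28 higher and 2 lower, against 27.7% and 26.1% of all genes. Rspo2 and Fzd7 were the genes lower in D2.OR in both cultures. Where a member is called in a single culture below, the difference between cultures is the interaction, which edgeR's test with all libraries and the filter on low counts called for none. DESeq2 called it for Lgr6, Wnt5b, Axin2 and Porcn, and edgeR without that filter for Axin2. With only genes at 10 or more counts in every library, which leaves out members silent in a line, 27 members were tested. Of these, 14 were higher and 1 lower in 2D, against 25.5% and 25.3% of all genes, and 19 were higher and 2 lower in 3D, against 27.8% and 27.1%. The median log2-fold change of these 27 was 0.61 in 2D and 1.33 in 3D, and that of all genes in this fit -0.01 in both. The 2D count of 25 was 15 without replicate 2, with Axin2, Fzd6, Fzd7, Lrp5, Ryk, Sfrp1, Tcf7, Wnt11, Wnt2b and Wnt5a lost. It was also 15 without replicate 3, with Axin2, Fzd5, Fzd6, Fzd7, Ryk, Sfrp1, Tcf7, Wnt11, Wnt2b and Wnt6 lost. In 3D, Fzd2, Fzd7, Ror1, Sfrp1, Wnt11 and Wnt5a were lost without replicate 2.

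**Figure D1:**
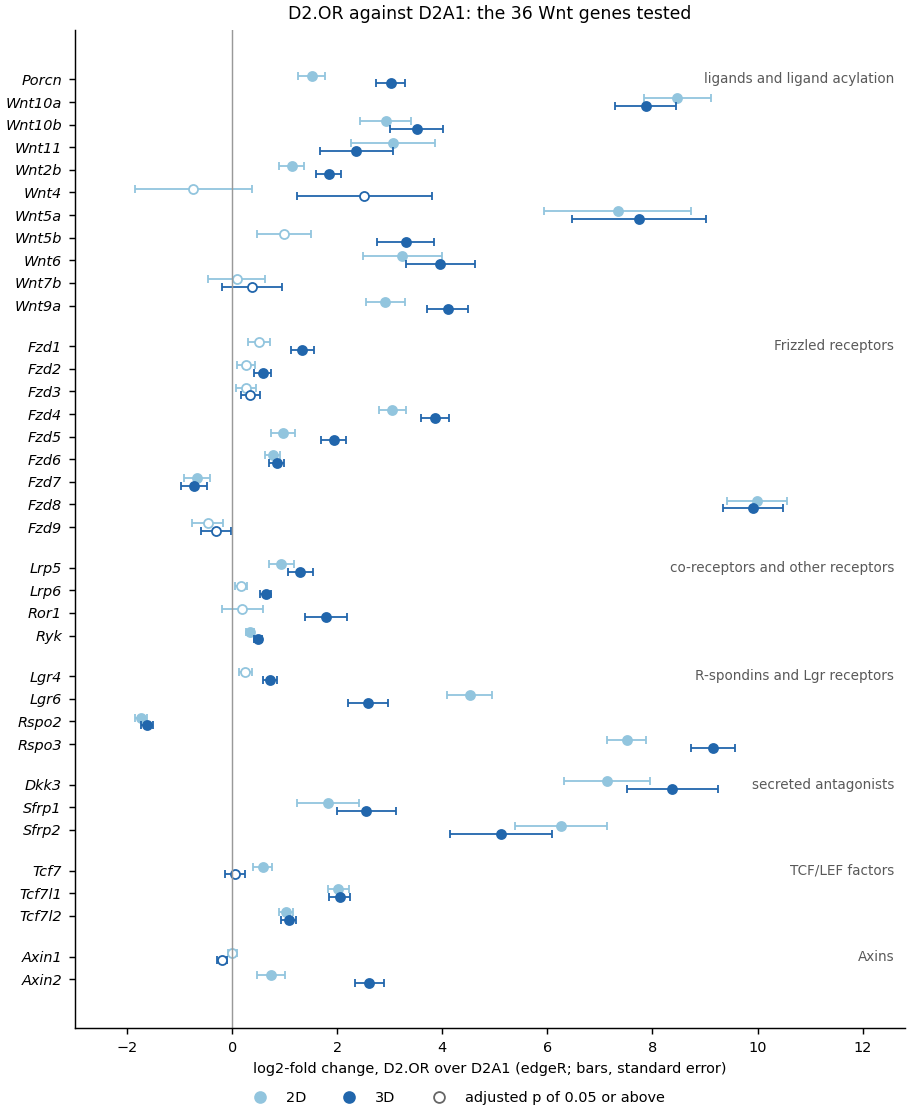
Log2-fold change of D2.OR over D2A1 (x axis) for the 36 Wnt genes tested, by role, in 2D (light blue) and 3D (dark blue), with the edgeR standard error. Filled points were called, and they lie to the right of 0 apart from Rspo2 and Fzd7.

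Among the ligands, 8 of 19 Wnt genes reached 1 TPM in a group, 3 were lower (Wnt1, Wnt5a, Wnt10b), and 8 were at the floor in all libraries: Wnt2, Wnt3, Wnt3a, Wnt7a, Wnt8a, Wnt8b, Wnt9b and Wnt16. Of these 19 and Porcn, 8 were called higher in D2.OR in 2D and 9 in 3D, and none lower, where 25.4% and 27.7% of all genes tested were called higher and 24.4% and 26.1% lower. Among them, Wnt5a, Wnt6, Wnt10a, Wnt10b and Wnt11 passed the filter only through D2.OR, so these counts carry no weight of their own. By abundance the ligands were led by Wnt4 and Wnt7b in D2A1, and by those and Wnt9a and Wnt10a in D2.OR.

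Wnt10a, a ligand of the β-catenin route, was close to silent in D2A1, with 0.05, 0 and 0 TPM in 2D and 0.02, 0.04 and 0.01 TPM in 3D. In D2.OR it was at 7.81, 3.18 and 2.99 TPM in 2D and 15.37, 2.77 and 3.6 TPM in 3D. The groups of the lines did not overlap, and replicate 1 was the highest of D2.OR in both cultures. In 2D the D2A1 libraries held 3 counts or fewer, and the D2.OR level was at least 112-fold higher (adjusted p = 1.13e-05, edgeR). In 3D the log2-fold change was 7.87 (SE 0.58, adjusted p = 9.19e-06, edgeR).

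Its neighbour Wnt6 lies upstream on the same strand, with 6193 bases and no protein-coding gene between them (GRCm38, Wnt6 at chr1:74771892-74785322, Wnt10a at chr1:74791516-74804179). Wnt6 had 0.23, 0 and 0.02 TPM in D2A1 2D and 0.13, 0.14 and 0.04 TPM in D2A1 3D. D2.OR had 0.53, 0.55 and 0.28 TPM in 2D and 2.96, 0.84 and 1.53 TPM in 3D, above each D2A1 library of the same culture. The log2-fold change was 3.24 in 2D (SE 0.76, adjusted p = 0.00658) and 3.96 in 3D (SE 0.66, adjusted p = 0.00098, edgeR). The 2D call was lost without replicate 3 (adjusted p = 0.0643, edgeR) and with limma on log2(TPM + 1) (adjusted p = 0.11). Both genes of the pair passed the filter on low counts only through D2.OR.

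Wnt9a, on chromosome 11, had 1.57, 0.73 and 0.49 TPM in D2A1 2D and 0.36, 0.37 and 0.4 TPM in D2A1 3D. It had 5.18, 6.68 and 6.37 TPM in D2.OR 2D and 7.36, 8.37 and 4.74 TPM in D2.OR 3D. In neither culture did the lines overlap. Its log2-fold change was 2.91 in 2D (SE 0.37, adjusted p = 0.000255) and 4.1 in 3D (SE 0.39, adjusted p = 4.41e-05, edgeR). Wnt3a, its neighbour 16175 bases away on the opposite strand, was listed at 0 TPM in all 12 libraries. Unlike Wnt6 and Wnt10a, this pair held an expressed and a silent gene.

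The promoters of Wnt9a and Wnt3a are shown because one gene of this neighbouring pair was expressed and the other was not. Sequences run 5′ to 3′ on the gene's strand, from 250 bases before to 50 after the RefSeq start, and capitals mark CpG dinucleotides. Wnt9a is at chr11:59306680-59306979 on the plus strand and Wnt3a at chr11:59290702-59291001 on the minus strand (GRCm38.p6).
Wnt9a: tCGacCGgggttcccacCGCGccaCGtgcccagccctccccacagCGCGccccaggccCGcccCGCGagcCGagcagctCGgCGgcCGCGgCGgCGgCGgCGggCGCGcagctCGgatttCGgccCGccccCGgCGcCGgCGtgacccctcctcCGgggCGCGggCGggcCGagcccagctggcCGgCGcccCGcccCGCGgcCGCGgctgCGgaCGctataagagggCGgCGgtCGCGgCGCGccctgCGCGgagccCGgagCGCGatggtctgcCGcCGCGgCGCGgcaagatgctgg
Wnt3a: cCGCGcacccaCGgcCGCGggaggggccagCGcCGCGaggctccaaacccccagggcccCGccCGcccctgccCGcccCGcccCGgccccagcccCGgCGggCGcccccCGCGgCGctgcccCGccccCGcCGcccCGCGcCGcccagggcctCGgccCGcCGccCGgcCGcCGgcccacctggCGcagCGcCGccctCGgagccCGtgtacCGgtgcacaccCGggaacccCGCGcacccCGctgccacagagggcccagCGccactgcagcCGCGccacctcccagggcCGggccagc
Both windows were rich in CpG, with 58 in Wnt9a and 45 in Wnt3a, where the median of all 32851 windows was 7.

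RefSeq windows were found for 37 of the 56 members, 45 windows in all, with a median of 26 CpG. Members at 1 TPM or more in a group had a median of 31 CpG over 25 windows, and members at the floor a median of 22.5 over 16 windows, ranging from 5 to 45. A CpG-rich start was thus found among silent and expressed members alike. A TCF/LEF core, spelled as CTTTG followed by 2 bases that are each A or T and searched on both strands, was in 7 of the 45 member windows, or 15.6%, and in 16.9% of all windows. Which start each cell line used is not known from counts per gene.

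Wnt11, a ligand best known for β-catenin-independent signalling, had 0.13, 0.13 and 0.11 TPM in D2A1 2D and 0.1, 0.54 and 1.06 TPM in D2A1 3D. In D2.OR it had 0.41, 1.5 and 1.46 TPM in 2D and 3.53, 2.27 and 1.97 TPM in 3D. Within each culture the lines stayed apart, although replicate 3 of D2A1 3D came nearest to D2.OR. D2.OR was higher by a log2-fold change of 3.06 in 2D (SE 0.80, adjusted p = 0.0116) and 2.36 in 3D (SE 0.69, adjusted p = 0.0172, edgeR). The 2D call was lost without replicate 2 (adjusted p = 0.15) or 3 (0.0539), and the 3D call without replicate 2 (0.117) and with only the libraries compared (0.0902, edgeR).

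Wnt2b was low throughout, at 0.3, 0.35 and 0.24 TPM in D2A1 2D, 0.36, 0.22 and 0.3 in D2A1 3D, 0.52, 0.73 and 0.58 in D2.OR 2D, and 1.1, 1.17 and 0.94 in D2.OR 3D. Each D2.OR library was above each D2A1 library, and the fitted log2-fold change was 1.13 in 2D (SE 0.24, adjusted p = 0.00441) and 1.84 in 3D (SE 0.24, adjusted p = 0.000258, edgeR). The 2D call was lost without replicate 2 (0.0539) or 3 (0.0724, edgeR).

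Wnt5b had 0.66, 0.82 and 0.63 TPM in D2A1 2D, 0.89, 0.15 and 0.12 in D2A1 3D, 1.59, 1.26 and 1.05 in D2.OR 2D, and 5.06, 3.26 and 1.4 in D2.OR 3D. Neither culture showed overlap. It was called in 3D (log2-fold change 3.31, SE 0.55, adjusted p = 0.000907, edgeR) and not in 2D (0.98, adjusted p = 0.14, edgeR), which does not show that the 2D levels were alike. Wnt5b overlaps Fbxl14 on the opposite strand, which averaged 31.42 TPM against 1.41 TPM for Wnt5b. The use of strand in counting is not given in the sources used here, so the level of Wnt5b is uncertain.

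Wnt5a, the relative of Wnt5b, had no count in any D2A1 library and was at 0.05, 0.17 and 0.04 TPM in D2.OR 2D and 0.04, 0.24 and 0.29 TPM in D2.OR 3D. This was at least 5.09-fold higher in 2D (adjusted p = 0.00946) and at least 10-fold higher in 3D (adjusted p = 0.005, edgeR), at levels well under 1 TPM. Its 2D call was also lost with both limma fits and its call in both cultures with only the libraries compared. Wnt10b was also called in both cultures and averaged at most 0.337 TPM in a group. Its neighbour Wnt1, 11706 bases away, averaged at most 0.09 TPM.

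Porcn, the acyltransferase that gives Wnt proteins their lipid, was the most abundant of the ligand group in D2.OR. It had 18.26, 24.84 and 14.32 TPM in D2A1 2D, 14.45, 10.99 and 7.82 in D2A1 3D, 37.49, 67.24 and 43.53 in D2.OR 2D, and 139.56, 83.64 and 57.62 in D2.OR 3D. Each D2.OR library exceeded each D2A1 library, and D2.OR 3D replicate 1 was highest. D2.OR was higher by a log2-fold change of 1.51 in 2D (SE 0.26, adjusted p = 0.00133) and 3.02 in 3D (SE 0.28, adjusted p = 3.24e-05, edgeR).

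**Figure D2:**
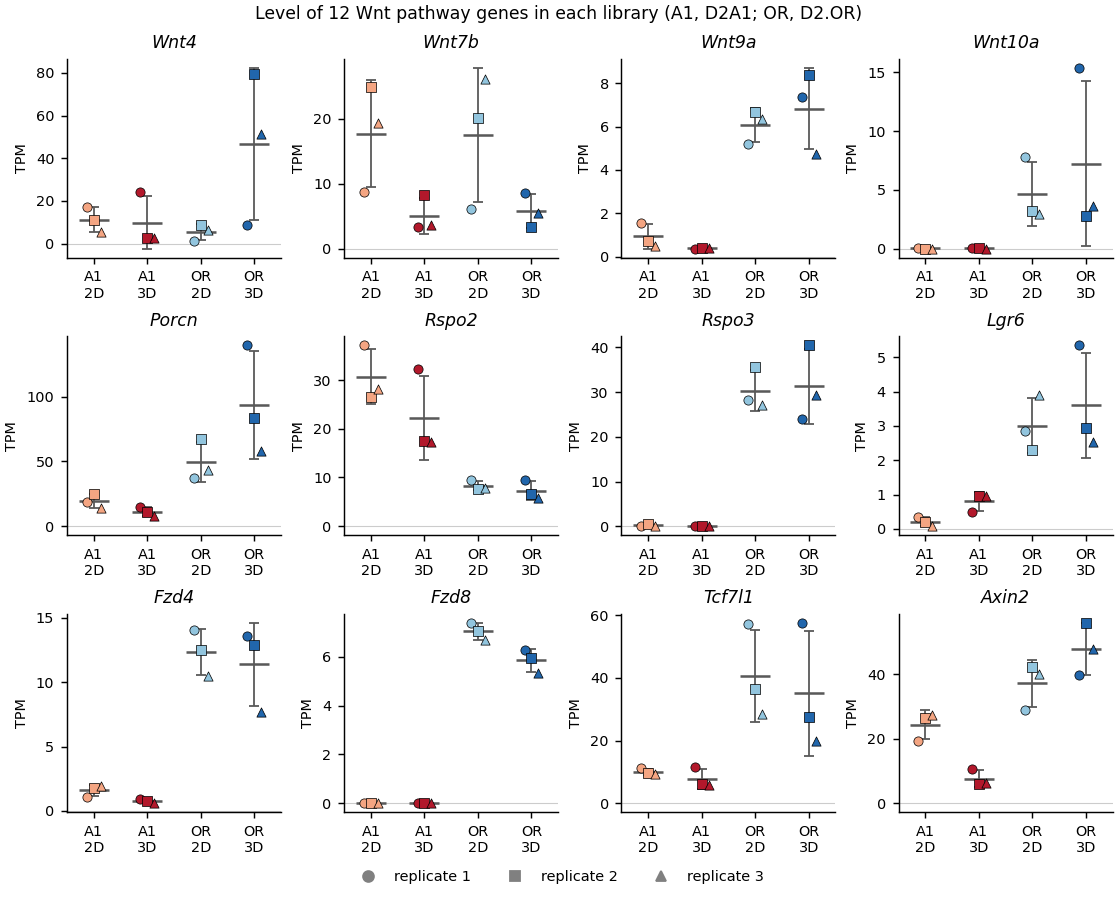
TPM (y axis, linear, its own range per gene) of 12 Wnt pathway genes in the 4 groups, with a point per library, the shape giving the replicate number, and a line and bar for the mean and SD of 3 replicates. Rspo2 was higher in D2A1 (A1), Wnt4 and Wnt7b overlapped between the lines, and the other 9 lay higher in D2.OR (OR).

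Wnt4 or Wnt7b was the most abundant ligand in each D2A1 library and in replicates 2 and 3 of D2.OR, and edgeR called neither between the lines. Wnt4, Wnt7b, Rspo2 and Fzd7 are given by library although the rule for naming did not select them, and were chosen after their values were seen. Wnt4 had 17.31, 10.81 and 5.5 TPM in D2A1 2D, 24.03, 2.73 and 2.75 in D2A1 3D, 1.39, 8.64 and 6.5 in D2.OR 2D, and 8.73, 79.55 and 51.38 in D2.OR 3D. In replicate 1, Wnt4 was higher in D2A1 than in D2.OR in both cultures. In 2D replicate 2 went the same way and replicate 3 the other way, and in 3D both of these had more Wnt4 in D2.OR. In 3D the log2-fold change was 2.52 (SE 1.28, adjusted p = 0.124, edgeR), and without replicate 1 it was 4.5 (adjusted p = 8.68e-06, edgeR). DESeq2 called it with all libraries (2.54, adjusted p = 0.042).

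Wnt7b had 8.76, 24.91 and 19.4 TPM in D2A1 2D, 3.29, 8.3 and 3.66 in D2A1 3D, 6.09, 20.15 and 26.16 in D2.OR 2D, and 8.58, 3.34 and 5.47 in D2.OR 3D. The lines overlapped in both cultures. The log2-fold changes were 0.08 in 2D (SE 0.54, adjusted p = 0.91) and 0.37 in 3D (SE 0.56, adjusted p = 0.596, edgeR), with standard errors too wide to show that the lines were alike.

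The 19 Wnt genes summed to 29.14, 37.79 and 26.42 TPM in D2A1 2D and 29.3, 12.59 and 8.49 TPM in D2A1 3D. In D2.OR they summed to 23.95, 43.23 and 45.88 TPM in 2D and 53.36, 102.08 and 71.72 TPM in 3D. The D2.OR 3D libraries were the highest 3 of the 12. Wnt7b made up 65.9% and 73.4% of this sum in replicates 2 and 3 of D2A1 2D and 46.6% and 57% in those of D2.OR 2D, while Wnt4 made up 77.9% and 71.6% in those of D2.OR 3D. In replicate 1 the composition differed: Wnt4 held 59.4% and 82% of the sum in D2A1 2D and 3D, and Wnt10a led in D2.OR with 32.6% and 28.8%, where Wnt4 held 5.8% and 16.4% and Wnt7b 25.4% and 16.1%.

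**Figure D3:**
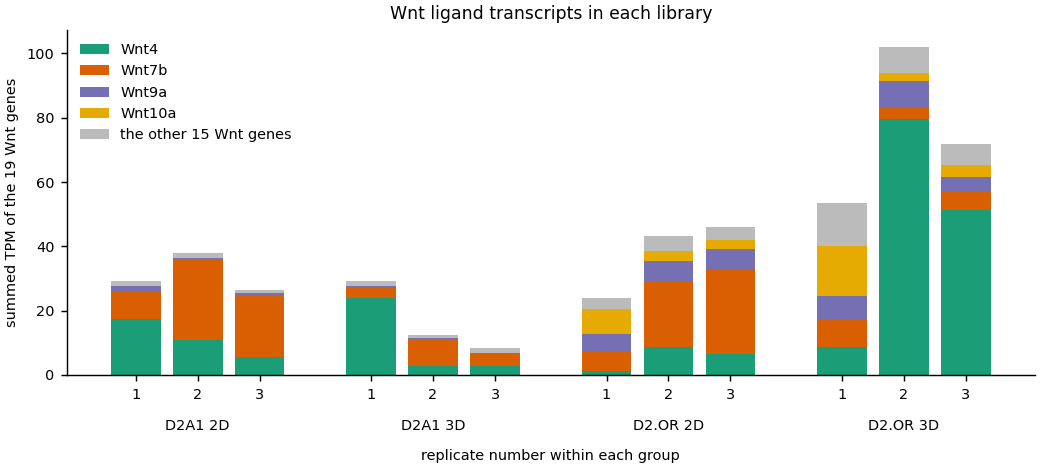
Summed TPM of the 19 Wnt genes (y axis) in each of the 12 libraries, grouped by line and culture and split by gene. The D2.OR 3D libraries reach 53.36 to 102.08 TPM, mostly from Wnt4 in replicates 2 and 3, and no other library passes 45.88 TPM.

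Of the 10 Frizzled receptors, 9 reached 1 TPM in a group and Fzd10 was listed at 0. In 2D, 4 of the 10 were higher and 1 lower in D2.OR, against 25.4% and 24.4% of all genes, and in 3D, 6 were higher and 1 lower, against 27.7% and 26.1%. Fzd8 is in both counts and passed the filter only through D2.OR. The largest log2-fold changes were those of Fzd8 and Fzd4.

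Fzd8 had 0.02, 0 and 0 TPM in D2A1 2D and the same values in D2A1 3D, with at most 2 counts. D2.OR had 7.39, 7.08 and 6.69 TPM in 2D and 6.27, 5.96 and 5.33 TPM in 3D. The replicates of D2.OR lay close together and far from D2A1. D2.OR exceeded D2A1 at least 234-fold in 2D (adjusted p = 2.1e-06) and at least 245-fold in 3D (adjusted p = 2.14e-06, edgeR).

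Fzd4, which also serves as the receptor for the non-Wnt ligand Norrin, had 1.11, 1.75 and 1.93 TPM in D2A1 2D, 0.95, 0.75 and 0.6 in D2A1 3D, 14.03, 12.52 and 10.44 in D2.OR 2D, and 13.6, 12.9 and 7.71 in D2.OR 3D. D2.OR was higher throughout, with a log2-fold change of 3.05 in 2D (SE 0.26, adjusted p = 2.39e-05) and 3.86 in 3D (SE 0.27, adjusted p = 6.95e-06, edgeR).

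Fzd5 had 6.82, 3.84 and 5.39 TPM in D2A1 2D, 9.27, 3.09 and 3.61 in D2A1 3D, 12.06, 8.08 and 9.75 in D2.OR 2D, and 22.85, 21.22 and 13.91 in D2.OR 3D. Each D2.OR library was above the D2A1 libraries of its culture. The log2-fold change was 0.97 in 2D (SE 0.23, adjusted p = 0.0073) and 1.93 in 3D (SE 0.24, adjusted p = 0.000186, edgeR), and the 2D call was lost without the replicate block (0.054) or without replicate 3 (0.0584, edgeR). RSEM shared reads between Fzd5 and other genes in 10 libraries, so its level is less certain than that of the other Frizzled genes.

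Fzd7 went the other way. It had 13.93, 28.43 and 30.79 TPM in D2A1 2D, 21.41, 35.37 and 34.03 in D2A1 3D, 13.82, 12.32 and 13.87 in D2.OR 2D, and 19.96, 16.48 and 18.1 in D2.OR 3D. In replicate 1 the 2 lines nearly met. The log2-fold change was -0.67 in 2D (SE 0.25, adjusted p = 0.0479) and -0.73 in 3D (SE 0.25, adjusted p = 0.0332, edgeR). Both calls were lost without replicate 2 (adjusted p = 0.318 and 0.258, edgeR) or without replicate 3 (0.328 and 0.204). The 2D call was also lost without the replicate block (0.0519), with DESeq2 size factors (0.0563), with at least 10 counts in every library (0.0558) and with only the libraries compared (0.114, edgeR), and the 3D call with limma on log2(TPM + 1) (0.0508). On the log2 CPM scale, D2.OR minus D2A1 in 2D was 0.12, -1.07 and -1.03 in the 3 replicate numbers, so replicate 1 went against the call.

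The other Frizzled genes differed less than Fzd8 and Fzd4. Fzd6 averaged 39.78 and 34.06 TPM in D2A1 2D and 3D and 60.38 and 62.53 TPM in D2.OR, and was higher in D2.OR in both (log2-fold change 0.77 and 0.84, adjusted p = 0.00224 and 0.00116, edgeR). Fzd1 averaged 25.09, 20.44, 32.49 and 52.62 TPM in the same order and Fzd2 averaged 38.19, 23.57, 41.08 and 37.43 TPM. Both were called in 3D (1.33 and 0.58, adjusted p = 0.000833 and 0.0154, edgeR) and neither in 2D, and the Fzd2 call was also lost without the replicate block. Fzd3, at 2.21 to 3.11 TPM, and Fzd9, at 0.707 to 1.17 TPM over group means, were called in neither.

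Among the co-receptors and other receptors, Ror2 was at the floor and the other 4 were expressed, Ryk most. Ryk averaged 94.76 and 84.02 TPM in D2A1 2D and 3D and 109.3 and 121.2 TPM in D2.OR, a small difference (log2-fold change 0.33 and 0.49, adjusted p = 0.0045 and 0.000456, edgeR). Its 2D call was lost without the replicate block, with scaling by the library total alone, with limma on log2(TPM + 0.1), with only the libraries compared, and without replicate 2 or 3. Lrp5 averaged 33.3, 26.67, 59.56 and 68.26 TPM in the same order and was higher in D2.OR (0.94 and 1.29, adjusted p = 0.0105 and 0.00181, edgeR). Its paralog Lrp6 averaged 31.41, 24.97, 31.78 and 37.27 TPM and was called in 3D alone (0.63, adjusted p = 0.00146, edgeR). Ror1 averaged 2.21, 0.687, 2.76 and 3.2 TPM and was called in 3D alone (1.78, adjusted p = 0.00509, edgeR), with D2.OR 3D libraries spread from 0.63 to 7.29 TPM, and that call was also lost without the replicate block.

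The prevailing R-spondin differed between the lines. Rspo2 and Rspo3 are related secreted ligands of the Lgr receptors, and Rspo1 and Rspo4 stayed at or under 0.32 TPM in each library. Rspo2 had 37.17, 26.64 and 28.24 TPM in D2A1 2D, 32.31, 17.43 and 17.22 in D2A1 3D, 9.5, 7.68 and 7.83 in D2.OR 2D, and 9.45, 6.5 and 5.87 in D2.OR 3D. D2A1 was higher without overlap, and Rspo2 was lower in D2.OR by a log2-fold change of -1.74 in 2D (SE 0.12, adjusted p = 5.18e-06) and -1.62 in 3D (SE 0.11, adjusted p = 7.38e-06, edgeR).

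Rspo3 had 0.1, 0.4 and 0.13 TPM in D2A1 2D and 0.14, 0.1 and 0.05 TPM in D2A1 3D. D2.OR had 28.13, 35.58 and 27.2 TPM in 2D and 24.06, 40.43 and 29.3 TPM in 3D. The lines did not overlap, with a log2-fold change of 7.51 in 2D (SE 0.37, adjusted p = 9.92e-07) and 9.15 in 3D (SE 0.42, adjusted p = 6.83e-07, edgeR). As a share of R-spondin TPM, Rspo2 made up 98.5% to 99.7% in the D2A1 libraries, whereas Rspo3 made up 71.1% to 85.9% in the D2.OR libraries. The summed level was 17.27 to 37.29 TPM in D2A1 and 33.83 to 47.05 TPM in D2.OR. Neither call was lost under any alternative tried that tested the gene. Fractional RSEM counts, which mark reads shared with other genes, occurred for Rspo3 in 5 libraries and for Sfrp2 in 1.

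Of the R-spondin receptors, Lgr5 was at or under 0.07 TPM and Lgr4 averaged 8.4, 6.42, 9.28 and 10.84 TPM in D2A1 2D, D2A1 3D, D2.OR 2D and D2.OR 3D. Lgr4 was called in 3D alone (log2-fold change 0.72, SE 0.13, adjusted p = 0.00139, edgeR). Lgr6 had 0.34, 0.19 and 0.09 TPM in D2A1 2D, 0.48, 0.96 and 0.97 in D2A1 3D, 2.86, 2.29 and 3.89 in D2.OR 2D, and 5.35, 2.93 and 2.52 in D2.OR 3D. The lines did not overlap, with a log2-fold change of 4.52 in 2D (SE 0.42, adjusted p = 4.3e-05) and 2.58 in 3D (SE 0.38, adjusted p = 0.000448, edgeR).

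The Sfrp and Dkk genes, which encode secreted antagonists, were scarce. Dkk1, Dkk2 and Dkk4 were at the floor, and no Sfrp or Dkk gene averaged 10 TPM in any group. Of the 8, Dkk3, Sfrp1 and Sfrp2 passed the filter on low counts and were called higher in D2.OR in both cultures. Dkk3 and Sfrp2 passed it only through D2.OR, so this count carries no weight. Dkk3, a divergent member of its family, had 0.01, 0 and 0.01 TPM in D2A1 2D and 0.01, 0 and 0 TPM in D2A1 3D, against 0.44, 1.41 and 1.11 TPM in D2.OR 2D and 1.56, 1.39 and 0.66 TPM in D2.OR 3D. It was at least 32.8-fold higher in 2D (adjusted p = 0.000134) and at least 50.4-fold higher in 3D (adjusted p = 6.68e-05, edgeR).

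Sfrp2, a secreted Frizzled-like protein that binds Wnts, had 0.08, 0 and 0 TPM in D2A1 2D and 0, 0.03 and 0 TPM in D2A1 3D. D2.OR had 1.08, 2.81 and 0.69 TPM in 2D and 0.85, 0.61 and 0.14 TPM in 3D. No D2.OR library reached down to D2A1, and Sfrp2 was at least 24.7-fold higher in 2D (adjusted p = 0.00043) and at least 8.98-fold higher in 3D (adjusted p = 0.00196, edgeR). The 3D call was lost with limma on log2(TPM + 1) (adjusted p = 0.0692), and Sfrp2 did not pass the filter with only the 3D libraries. Sfrp1, under 1 TPM in each group mean, went against its 2D call in replicate 1, and the lines overlapped in 2D. That call was also lost without the replicate block, with both limma fits, with only the libraries compared and without replicate 2 or 3. The 8 Sfrp and Dkk genes summed to at most 0.27 TPM in D2A1 and 1.65 to 5.52 TPM in D2.OR, where the Wnt genes summed to 23.95 TPM or more. Other secreted antagonists are no members. Frzb, Sost and Sostdc1 stayed at or under 0.04 TPM. Notum, which removes the lipid from Wnt proteins, averaged 26.23, 35.1, 26.25 and 75.75 TPM in D2A1 2D, D2A1 3D, D2.OR 2D and D2.OR 3D and was not called between the lines (adjusted p = 0.582 in 2D and 0.153 in 3D, edgeR). Wif1, which binds Wnt proteins, averaged 0.563, 0.673, 0.543 and 8.28 TPM in the same order. It was called in 3D (log2-fold change 3.73, adjusted p = 0.0405) and not in 2D (0.085, adjusted p = 0.961, edgeR).

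Of the TCF/LEF factors, Lef1 was listed at 0 in all libraries. Tcf7l1, which mostly represses target genes in the absence of β-catenin, had 11.21, 9.68 and 9.43 TPM in D2A1 2D, 11.52, 6.23 and 5.8 in D2A1 3D, 56.99, 36.34 and 28.31 in D2.OR 2D, and 57.57, 27.61 and 19.88 in D2.OR 3D. No library of D2A1 came near D2.OR, where replicate 1 was highest. D2.OR was higher by a log2-fold change of 2.02 in 2D (SE 0.20, adjusted p = 5.89e-05) and 2.04 in 3D (SE 0.20, adjusted p = 4.96e-05, edgeR). Tcf7l1 made up 26.4% to 45% of TCF/LEF TPM in D2A1 libraries and 49.8% to 69% in D2.OR libraries. Tcf7l2 averaged 6.29, 5.84, 11.04 and 11.87 TPM in the order used above and was higher in D2.OR in both cultures (1.03 and 1.07, adjusted p = 0.0003 and 0.000213, edgeR). Tcf7, with means of 9.7 to 14.38 TPM, was called in 2D alone (0.58, adjusted p = 0.0302, edgeR), a call also lost with the library total alone, both limma fits and only the libraries compared.

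The Axins split. Axin1, the constitutive scaffold, averaged 49.84 to 57.14 TPM over the groups and was not called between the lines (adjusted p = 0.992 in 2D and 0.0946 in 3D, edgeR). Axin2, which is both a scaffold and a common readout of β-catenin activity, had 19.2, 26.49 and 27.43 TPM in D2A1 2D, 10.76, 6.06 and 6.2 in D2A1 3D, 29.03, 42.4 and 40.2 in D2.OR 2D, and 39.81, 56.08 and 47.99 in D2.OR 3D. Each D2.OR library was above each D2A1 library, with the widest gap in 3D. The log2-fold change was 2.61 in 3D (SE 0.28, adjusted p = 7.68e-05, edgeR). In 2D it was 0.74 (SE 0.26, adjusted p = 0.04, edgeR), and that call was lost with scaling by the library total alone (0.57, adjusted p = 0.0965, edgeR) and without replicate 2 (adjusted p = 0.194) or replicate 3 (adjusted p = 0.137). It was also lost with limma on log2(TPM + 1) (0.0833) and log2(TPM + 0.1) (0.0882), and in edgeR without any 1 library of D2A1 2D, of D2.OR 2D replicates 2 and 3 or of D2.OR 3D replicates 2 and 3 (0.0507 to 0.148).

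The next comparison asks what 3D culture changes within each line. In D2A1, 2 members were called: Lgr6 was higher and Axin2 lower in 3D. This count may be read against 1.37% of all genes called higher and 2.12% called lower. DESeq2 called 11 members there and 23.6% of all genes. In D2.OR none was called by edgeR, which called 0.838% of all genes higher and 0.785% lower. An unadjusted p under 0.05 was found for 11 members and 17.6% of all genes. DESeq2 called 2 members, Fzd5 and Wnt2b, and 7.82% of all genes. The 2 comparisons share no library.

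Axin2 in D2A1 was lower in 3D than in 2D in each replicate number, by -0.82, -2 and -2.06 on the log2 CPM scale. CPM is a library's counts scaled to a common total, and these differences carry no length scaling. The fitted log2-fold change was -1.57 (SE 0.27, adjusted p = 0.0333, edgeR). Without replicate 1 it was -2.04 (adjusted p = 0.000155), and without replicate 2 or 3 the call was lost (adjusted p = 0.516 and 0.538, edgeR). It was also lost with only the libraries compared (0.14) and without any 1 library of replicate 2 or 3, those of D2.OR included (0.0564 to 0.189, edgeR). In D2.OR the differences were 0.42, 0.27 and 0.25, and not called.

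Lgr6 in D2A1 was higher in 3D by 1.08, 2.4 and 3.18 on the log2 CPM scale, from a low level. The fitted log2-fold change was 2.32 (SE 0.41, adjusted p = 0.0359, edgeR), and without replicate 1 it was 2.85 (adjusted p = 0.00078, edgeR). The call was lost without replicate 2 (adjusted p = 0.516) or 3 (0.538), without the replicate block (0.0523), with only the libraries compared (0.172) and without any 1 library of replicate 2 or 3 (0.0604 to 0.199, edgeR). It was also lost with limma on log2(TPM + 1) (adjusted p = 0.175) and log2(TPM + 0.1) (0.063).

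Without replicate 1, 16 members were called in D2A1, 3 higher and 13 lower in 3D, against 17.4% and 18.9% of all genes. The 3 higher were Lgr6, Wnt11 and Fzd7. Among the 13 lower were the ligands Wnt4 (log2-fold change -1.35, adjusted p = 0.00296), Wnt5b (-2.42, adjusted p = 0.0031) and Wnt7b (-1.76, adjusted p = 0.0135), Porcn (-0.93, adjusted p = 0.00107) and Rspo2 (-0.52, adjusted p = 0.00765, edgeR). Rspo3 was also among them (-2.12, adjusted p = 0.00962, edgeR), from 41 and 12 counts in D2A1 2D to 7 and 6 in D2A1 3D. Rspo3 and Wnt11 are in these counts although they passed the filter only through D2.OR.

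In D2.OR without replicate 1, 6 members were called, 2 higher and 4 lower in 3D, against 3.69% and 4.7% of all genes. Wnt4 was higher (log2-fold change 3.08, adjusted p = 0.000899), as was Fzd5 (0.96, adjusted p = 0.0287). Wnt7b (-2.4, adjusted p = 0.0165), Sfrp2 (-2.51, adjusted p = 0.0227), Tcf7 and Fzd2 were lower (edgeR). With all libraries, Wnt4 in D2.OR differed by 2.51, 3.17 and 2.98 on the log2 CPM scale in replicates 1 to 3, the same way each time, with a fitted value of 3.05 (SE 1.12, adjusted p = 0.201, edgeR). With only the libraries compared it was called (2.92, adjusted p = 0.00713, edgeR). The 3 adipocyte markers, Fabp4 foremost, summed to 4.41 to 26.81 TPM in D2.OR 2D and 57.36 to 479.59 TPM in D2.OR 3D, highest in replicate 2, as Wnt4 was, and Adipoq stayed at or under 2.03 TPM. The 7 epithelial markers summed to 1164.67 to 1716.27 TPM in D2.OR 2D and 422.37 to 877 TPM in D2.OR 3D. The part of either list in the values for D2.OR was not tested.

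The promoters of Wnt4 and Axin2 are shown because these genes carried the largest ligand level in D2.OR 3D and the readout gene lower in D2A1 3D. They follow the same conventions, with CpG in capitals, on the plus strand at chr4:137277385-137277684 and chr11:108920099-108920398 (GRCm38.p6).
Wnt4: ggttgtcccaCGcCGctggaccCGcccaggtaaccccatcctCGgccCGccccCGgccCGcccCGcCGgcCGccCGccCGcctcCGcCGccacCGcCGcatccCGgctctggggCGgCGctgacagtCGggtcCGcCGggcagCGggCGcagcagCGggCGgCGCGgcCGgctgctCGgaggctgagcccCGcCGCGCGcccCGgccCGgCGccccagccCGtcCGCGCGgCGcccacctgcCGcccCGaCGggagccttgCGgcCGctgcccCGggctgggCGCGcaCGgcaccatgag
Axin2: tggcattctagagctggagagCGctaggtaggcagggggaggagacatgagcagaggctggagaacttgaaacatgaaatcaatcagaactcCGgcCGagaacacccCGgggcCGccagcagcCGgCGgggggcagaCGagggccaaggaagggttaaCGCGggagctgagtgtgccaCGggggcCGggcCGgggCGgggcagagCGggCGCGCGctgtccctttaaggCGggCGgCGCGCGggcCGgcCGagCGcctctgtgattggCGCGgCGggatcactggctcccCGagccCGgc
The Wnt4 window held 51 CpG and the Axin2 window 31, and neither held the TCF/LEF core described above.

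**Figure D4:**
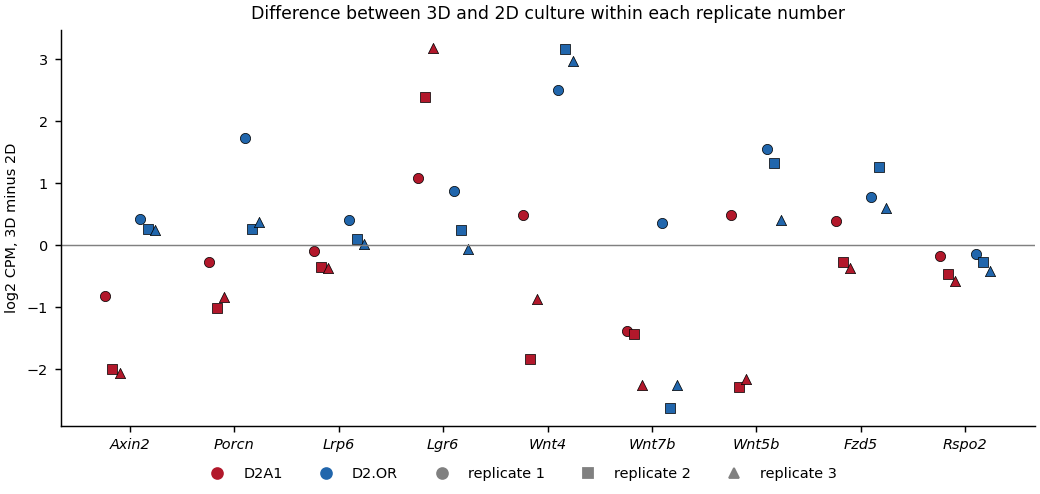
Difference between 3D and 2D (y axis, log2 CPM) within each replicate number for 9 Wnt pathway genes in D2A1 (red) and D2.OR (blue), a point per replicate. Axin2, Porcn and Lrp6 lie below 0 in each D2A1 replicate and above 0 in each D2.OR replicate.

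Whether 3D culture acted differently on the lines was tested with the interaction, D2.OR minus D2A1. No member was called by edgeR with all libraries, where it called 0.0178% of all genes positive and 0.00594% negative. An unadjusted p under 0.05 was found for 12 members and 17.8% of all genes. DESeq2 called 4 members (Lgr6, Wnt5b, Axin2 and Porcn) and 6.17% of all genes. Axin2 had the smallest p (1.87, SE 0.37, adjusted p = 0.0892, edgeR), with 1.24, 2.27 and 2.31 in the 3 replicate numbers. Porcn followed (1.51, SE 0.36, adjusted p = 0.124, edgeR), with 2.01, 1.28 and 1.22.

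Without replicate 1, 10 members were called in the interaction, 9 positive and 1 negative, against 9.17% and 8.64% of all genes. The 9 positive were Axin2 (2.3, adjusted p = 0.00151), Wnt4 (4.43, adjusted p = 0.00167), Porcn (1.26, adjusted p = 0.00425), Wnt5b, Rspo3, Fzd1, Fzd4, Fzd5 and Lrp6, and Lgr6 was negative (-2.77, adjusted p = 0.00577, edgeR). The Rspo3 value rests on the low D2A1 counts given above. Leaving out D2A1 2D replicate 1 alone gave 8 calls, and leaving out D2A1 3D replicate 1 alone gave 4. The share of all genes called in these last fits is not given, so they are not read as results on Wnt genes.

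A list of 56 further Wnt pathway genes was read beside the members, 50 of them tested. In 2D, 12 were higher and 13 lower in D2.OR, against 25.4% and 24.4% of all genes, and in 3D, 21 and 14, against 27.7% and 26.1%. The median log2-fold changes were -0.06 and 0.28. The 4 with the smallest p in 2D were Gpc4, Pygo1, Kremen1 and Prickle2. Gpc4, a cell-surface glypican, averaged 0.0367 TPM in D2A1 2D and 39.19 TPM in D2.OR 2D (adjusted p = 2.87e-07, edgeR). Kremen1, a Dkk receptor, averaged 14.61 and 52.87 TPM (adjusted p = 2.52e-05). Pygo1, a β-catenin cofactor, averaged 2.06 and 0.0333 TPM (adjusted p = 4.67e-06), and Prickle2, of planar cell polarity, 5.67 and 0.187 TPM (adjusted p = 7.11e-05, edgeR).

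Wls, the carrier that brings Wnt proteins to the cell surface, was lower in 3D in both lines. It ranged from 435.83 to 576.25 TPM in D2A1 2D and 160.38 to 222.02 TPM in D2A1 3D (log2-fold change -1.24, adjusted p = 0.0144), and from 421.68 to 656.54 TPM in D2.OR 2D and 289.16 to 335.42 TPM in D2.OR 3D (-0.83, adjusted p = 0.0356, edgeR). Without replicate 1 the values were -1.41 (adjusted p = 0.000246) and -1 (adjusted p = 0.00262, edgeR). With all libraries, 1 pathway gene was higher and 3 lower in D2A1 3D, against 1.37% and 2.12% of all genes: Celsr3 was higher, and Wls, Adgra2 and Daam1 were lower, Daam1 close to the threshold (adjusted p = 0.0478, edgeR). In D2.OR 3D, none was higher and 2 were lower, Wls and Vangl2 (adjusted p = 0.0476, edgeR), against 0.838% and 0.785%. Without replicate 1, 2 were higher and 30 lower in D2A1, against 17.4% and 18.9% of all genes, and 3 were higher and 7 lower in D2.OR, against 3.69% and 4.7%, with the genes just named called in the same direction.

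Of 19 known Wnt target genes, 5 are members. Of the other 14, 10 were tested, with 5 higher and 1 lower in D2.OR in 2D, against 25.4% and 24.4% of all genes, and 7 and 1 in 3D, against 27.7% and 26.1%. Of these 14, 5 are also in the list of pathway genes above (Nkd1, Znrf3, Rnf43, Notum and Apcdd1), so the lists are not separate. The 4 with the smallest p in 2D were Cd44, an adhesion receptor, Wisp2, a secreted matrix protein, Myc, a growth regulator, and Rnf43, which removes Frizzled from the surface. Myc averaged 38.25 TPM in D2A1 2D and 115.1 TPM in D2.OR 2D (log2-fold change 1.71, adjusted p = 0.00073, edgeR), and Wisp2 averaged 75.91 and 603.7 TPM (adjusted p = 0.00069). Cd44 averaged 62.01 and 139.3 TPM (adjusted p = 0.000345, edgeR). Rnf43 went the other way, at 15.52 and 6.67 TPM (-1.08, adjusted p = 0.00102, edgeR). In D2A1, Wisp1 and Tnfrsf19, besides Axin2, were lower in 3D (-1.08 and -1.22, adjusted p = 0.041 and 0.042, edgeR), and without replicate 1 by -1 and -1.49 (adjusted p = 0.00164 and 0.0033, edgeR). Without that replicate, 1 of the 10 tested was higher and 6 were lower in D2A1, against 17.4% and 18.9% of all genes, and none was higher and 1 lower in D2.OR, against 3.69% and 4.7%.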

How the data were processed

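RNA-seq was performed on 12 libraries. As the submitters' processing notes and methods state, the authors trimmed reads with Trimmomatic 0.32, aligned them with STAR 2.5.3 to GRCm38 and quantified genes with RSEM 1.3.0. The deposited expected counts were rounded to whole numbers here, and 10.7% to 11.8% of values per library were not whole. The TPM and FPKM values were also deposited, scaled by the authors for length and library size. FPKM was not used.

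edgeR 4.0.16 in R 4.3.3 tested 16823 genes that passed filterByExpr, with TMM normalization, a term for each of 4 groups and a block for the replicate number, and Benjamini-Hochberg adjustment over all of them. Common biological variation between replicates was 21.2%. The labels and the study's legends tie the number to a batch. Deviations from group means correlated by 0.08 to 0.51 (median 0.27) over 18 same-number pairs and by -0.43 to 0.3 (median -0.19) over 36 others. Log2 CPM used a prior count of 2. The study's reporting summary speaks of biological repeats in general, but the labels do not state separate cultures for these libraries, so p-values may measure technical spread. Fold values given as "at least" cover counting error only. The standard errors come from the edgeR fits and also carry the spread between replicates.

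The members and lists were chosen with earlier results of these data known. Values by library are given for the 16 members with the largest log2-fold change, of 21 called with at least 1 there and a mean of at least 1 TPM. Alternatives were DESeq2 1.42.0 (Wald test), limma 3.58.1 on log2(TPM + 1) and log2(TPM + 0.1), other scalings and filters, no block, only the libraries compared, and each library or replicate number left out. The edgeR step was tested on simulated counts. RefSeq promoter windows came from GRCm38.p6.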

Additional observations from a re-analysis of the deposited data

Results flagged for a closer look

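In 3 of the 33 members at 1 TPM or more, all tested, 3D culture went with a lower value in each D2A1 replicate and a higher value in each D2.OR replicate. Of all 13829 genes tested at that level, 462, or 3.34%, did the same, and 968, or 7%, went opposite ways in either direction. For each of the 3 members the interaction was tested by edgeR and did not pass the threshold with all libraries. The 3 were picked by the signs of the same differences, so a positive estimate followed from the choice. Axin2 differed by 1.87 (log2, SE 0.37, adjusted p = 0.0892, edgeR). Porcn differed by 1.51 (SE 0.36, adjusted p = 0.124, edgeR). Lrp6 differed by 0.46 (SE 0.16, adjusted p = 0.199, edgeR), with D2.OR differences as small as 0.02 on the log2 CPM scale. Without replicate 1, the edgeR interaction was called for all 3, at 2.3, 1.26 and 0.42, where 9.17% of all genes were called positive. With all libraries, DESeq2 called the interaction for Axin2 (adjusted p = 0.000235) and Porcn (adjusted p = 0.00578), and edgeR without the filter on low counts called it for Axin2 (adjusted p = 0.0407). DESeq2 called it for 6.17% of all genes, in either direction.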

How the results depend on the processing

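Of 43 gene results recomputed under the alternatives, none reversed, and of 1013 values 922 kept their side of the threshold, 71 lost the call and 20 gained one. The count of members called in 3D between the lines stayed within 1.5 times of 30 under each alternative. In 2D it fell from 25 to 15 with at least 10 counts in every library, which tests fewer members, and leaving out libraries gave 15 to 26, with 15 without replicate 2 and 15 without replicate 3. The 10 lost without replicate 2 and the 10 lost without replicate 3 share Axin2, Fzd6, Fzd7, Ryk, Sfrp1, Tcf7, Wnt2b and Wnt11. Scaling by the library total alone moved the median of all genes by -0.17 in 2D.

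Without the replicate block, the fit called 21 members in 2D, 28 in 3D, 1 for 3D against 2D in D2A1, and 0 in the others. For 3D against 2D in D2A1, against 2 members, DESeq2 called 11, no filter 4, both limma fits 1, and only the libraries compared 0. Leaving out libraries gave 0 to 16. It was 16 without replicate 1. Omitting replicate 1 of a single group gave 10 (D2A1 2D), 6 (D2A1 3D), 2 (D2.OR 2D) and 4 (D2.OR 3D). It was 0 without all or any 1 library of replicate 2 or of replicate 3. For D2.OR, against 0, DESeq2 called 2, only the libraries compared 3 (Fzd7, Fzd5 and Wnt4), and leaving out libraries 0 to 6, with 6 without replicate 1 and 1 each without that replicate of D2A1 3D or of D2.OR 3D. For the interaction, against 0, DESeq2 called 4, no filter 1 (Axin2), and leaving out libraries 0 to 10, with 10 without replicate 1, 8 without its D2A1 2D library and 4 without its D2A1 3D library. For culture and the interaction, the share of all genes called is given above for the main fit, DESeq2 and the fit without replicate 1. The other counts stand without such a share and are not read as results on Wnt genes. The causes were not tested. Depth limits members under 1 TPM, such as Wnt5a and Wnt10b, which rest on few counts.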
